A study of Mus musculus with 6 samples.

Results

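The genes described here are 10 genes of major histocompatibility complex (MHC) class I antigen presentation, out of 43309 genes counted in 6 libraries of mouse embryonic stem cells (mESCs). They are the immunoproteasome subunits Psmb8, Psmb9 and Psmb10, the peptide transporter subunits Tap1 and Tap2, the loading factor Tapbp, the light chain B2m, the class I heavy chains H2-K1 and H2-D1, and the class I-like gene Gm8909. All 10 were found by symbol in the deposited count table and all 10 were tested. They were selected on their changes in the same comparison of these libraries, so their own differences are given as a description without a p-value. Psmb8 passed the filter on low counts through the control libraries and Gm8909 through the libraries labelled knockout, so these 2 genes could pass only by differing.

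The control group was 3 wild-type (2lox/+) lines and the other group 3 lines whose genotype label reads Zbtb24 knockout (1lox/1lox), each sequenced as 1 TruSeq Stranded mRNA library from 2 µg of total RNA. Per the labels both groups were strain J1 (129SV) and grew in serum-containing medium on gelatin without feeder cells. Per the study's methods each line was a separately derived clone, so the spread between replicates holds differences between lines together with counting error. The p-values for other genes measure only that spread. Between 2 libraries of a group, the median squared difference per gene was 1.12 to 1.6 times that of counting alone, so the spread was not far above counting error. Zbtb24, which encodes a zinc finger transcription factor, had 510, 512 and 489 counts in the controls and 888, 925 and 1039 counts where the label reads knockout, higher by 0.99 ± 0.05 on the log2 scale (SE, n = 3 per group). The count of the gene targeted by the deletion therefore went against the label, and counts over a whole gene do not show which exons were read. The second group is called "labelled knockout" throughout.

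MHC class I molecules show the cell surface peptides cut from proteins inside the cell. The proteasome cuts the proteins, the TAP transporter carries the peptides into the endoplasmic reticulum, and a loading complex fits them onto a heavy chain paired with β2-microglobulin. In most tissues interferon raises the whole set through IRF factors and NLRC5, and embryonic stem cells are known for low class I levels.

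Libraries held 25042261 to 28838924 counts. Of 16823 genes tested, 69.5% passed the test in either direction, 35.2% as lower and 34.4% as higher in the labelled knockout, so a gene that passed is not unusual in this comparison. The 10 pluripotency markers were read at high level in every library, with a summed level of 5510 to 5610 cpm (counts scaled to the TMM-adjusted library size) in controls and 6740 to 6800 cpm in the labelled knockout, and 8 of them were higher and 2 lower. Leukocyte markers summed to 31.6 to 34.8 cpm in controls and 18.3 to 20.4 cpm in the labelled knockout, where 4 of the 6 tested were lower and 1 higher; the defining markers Adgre1 and Lyz2 were at 0 in all libraries and Ptprc had 1 to 5 counts. Fibroblast markers summed to 78.2 to 82.6 cpm against 41.0 to 44.1 cpm, with 6 of the 8 tested lower and 1 higher. Among them Col1a1 had 1095, 1126 and 1188 counts in controls and 92, 110 and 107 in the labelled knockout (log2 fold change -3.39). Most of the fall in the sum was Col1a1, with means of 41.06 and 3.93 cpm. Col1a2 had 212, 196 and 201 counts against 22, 17 and 26 (-3.15), and Lum was at 0 in all libraries. The marker that rose was Fbln1, with 511, 571 and 551 counts against 769, 765 and 809 (0.59), and Pdgfrb did not pass the test. Endoderm and trophoblast markers summed to 63.3 to 64.2 cpm against 81.5 to 82.7 cpm, with 3 of 9 higher and 4 lower. The leukocyte and fibroblast sums thus moved in the same direction as most of the class I genes, with 1 marker of each list higher. Their part in the results below was not tested. In bulk libraries fewer cells of a type and less RNA per cell cannot be told apart.

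The starts of the heavy chain genes and of B2m are shown because they carry the letters to which the regulators of the pathway are known to bind, and because Gm8909, the gene that moved the other way, can be set beside its relatives. RefSeq promoter windows (build GRCm38, from 250 bases before to 50 bases after the start) were found for 9 of the 10 genes, all but Tap2. Each line below is 160 bases of such a window, 5′ to 3′ on the gene's strand, and capitals mark matches to 5 motifs searched on both strands: AANNGAAA (the core of the interferon-stimulated response element, ISRE), GGGNNTTCC (kappa-B), TTCNNNGAA (GAS, the gamma-activated site), CCAAT (Y box) and TGACG (core of the X2 box). The stretches are H2-K1 at chr17:34000306-34000465 on the minus strand, H2-D1 at chr17:35262915-35263074 on the plus strand, Gm8909 at chr17:36168562-36168721 on the minus strand and B2m at chr2:122147537-122147696 on the plus strand.
H2-K1: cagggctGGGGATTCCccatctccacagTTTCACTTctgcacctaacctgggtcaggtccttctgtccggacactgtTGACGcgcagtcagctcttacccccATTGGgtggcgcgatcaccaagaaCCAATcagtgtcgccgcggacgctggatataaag
H2-D1: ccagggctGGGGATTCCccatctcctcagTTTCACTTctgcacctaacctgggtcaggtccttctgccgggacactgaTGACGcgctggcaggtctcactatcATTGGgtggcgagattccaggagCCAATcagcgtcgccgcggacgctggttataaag
Gm8909: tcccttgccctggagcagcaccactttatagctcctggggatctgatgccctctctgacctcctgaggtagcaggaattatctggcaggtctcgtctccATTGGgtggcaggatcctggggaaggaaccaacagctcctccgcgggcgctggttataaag
B2m: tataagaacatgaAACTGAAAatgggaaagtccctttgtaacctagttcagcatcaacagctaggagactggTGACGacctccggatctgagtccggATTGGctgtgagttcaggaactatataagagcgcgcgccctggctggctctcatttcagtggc
H2-K1 and H2-D1 carried kappa-B, ISRE, X2 and 2 Y box matches in the same order, while the Gm8909 stretch carried a single Y box match. Over the whole window, matching bases after global alignment made up 71.3% between H2-K1 and H2-D1, 52.0% between H2-K1 and Gm8909 and 60.3% between H2-D1 and Gm8909. These matches are descriptions of letters in the reference build and not of bound sites. The sequence of the lines' own strain was not compared with the reference, so whether the lines carry the same letters was not tested.

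Tap1 and Psmb9 are read in opposite directions from a shared start region, and their windows overlapped by 275 bases. The window of Tap1, chr17:34187306-34187605 on the plus strand, is shown with its Y box and X2 matches in capitals because both genes use it.
Tap1: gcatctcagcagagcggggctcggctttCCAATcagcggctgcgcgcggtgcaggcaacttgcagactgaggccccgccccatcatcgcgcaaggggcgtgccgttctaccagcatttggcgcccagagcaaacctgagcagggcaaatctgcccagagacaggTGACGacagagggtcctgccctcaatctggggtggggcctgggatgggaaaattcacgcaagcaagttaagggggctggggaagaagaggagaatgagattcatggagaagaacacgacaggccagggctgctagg
Over the 9 windows, Y box letters stood in 7, X2 letters in 5 (B2m, H2-D1, H2-K1, Psmb9 and Tap1), ISRE letters in 3 (B2m, H2-D1 and H2-K1), kappa-B letters in 2 (H2-D1 and H2-K1) and GAS letters in 1 (Psmb8). Among all 32851 RefSeq windows of the same length these letters stood in 37.4%, 20.8%, 23.9%, 5.82% and 8.3%, in the same order. The Y box and X2 matches of Tap1 and Psmb9 are the same bases read on opposite strands, so they are counted in both windows. The letters CAGGACCT, a motif known for ZBTB24, were in 0 of the 9 windows and in 1.99% of all windows, which says only that these letters are not in these 300 bases. No match overlapped another in any of the 9 windows. The RefSeq start lay within 52 bases of the gene start in the annotation used here for Psmb10, Tap1, B2m, H2-K1 and Gm8909, but 364 bases away for H2-D1, 434 for Psmb9, 474 for Psmb8 and 3579 for Tapbp.

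Of the 10 genes, 9 were lower and 1 was higher in the labelled knockout, and in all 10 the values of the groups did not overlap. Because the genes were chosen by this comparison, these counts are not a result, and over all genes tested 71.5% had groups that did not overlap. A fall of at least 1 on the log2 scale was seen for 5 of the 10, while 11.8% of all genes tested had such a fall and also passed the test. A rise of at least 1 was seen for Gm8909 alone of the 10, while 5.21% of all genes tested had such a rise and also passed. Genes with changes of this size that did not pass are not in these shares. The median log2 fold change was -1.27 for the 9 lower genes and -1.11 for all 10, also with Gm8909 at its lower bound, beside a median near 0 (-0.000363) for all genes tested. Together the 9 lower genes fell from 203.5 to 104.6 cpm, of which Psmb10 alone held 75.3 and 49.7 cpm.

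**Figure D1:**
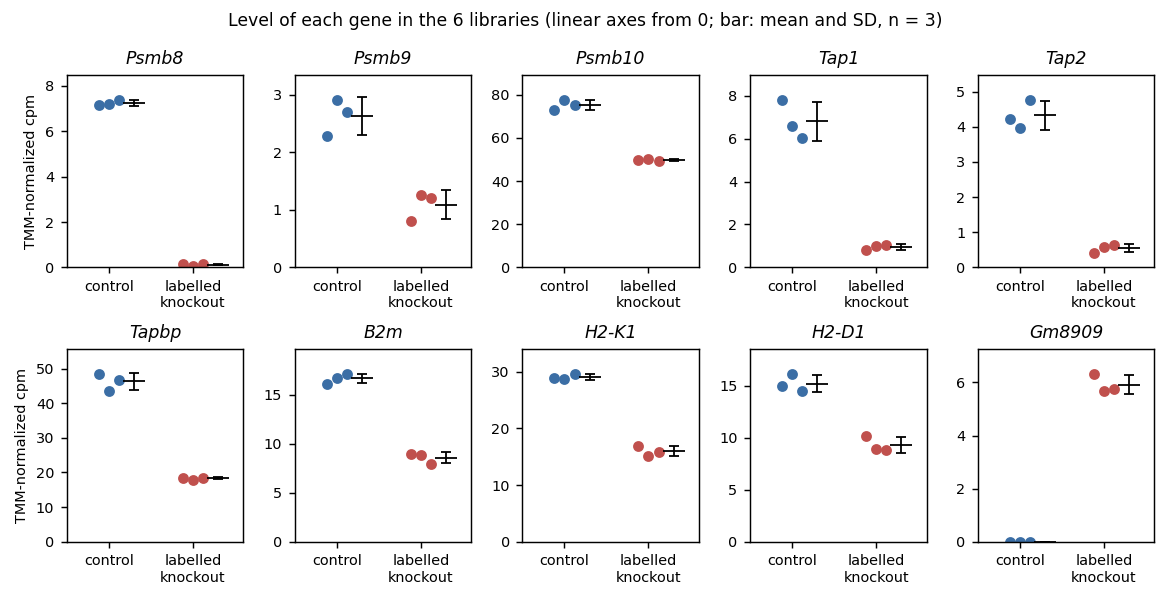
Level of each of the 10 genes in cpm after TMM scaling (linear axes from 0), with 1 point per library, 3 control libraries in blue and 3 labelled knockout libraries in red, and the mean and SD beside them. Nothing overlaps between groups: Psmb8 is nearly absent and Gm8909 present only in the labelled knockout, while Psmb10 falls from 75.3 to 49.7 cpm.

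The catalytic subunits of the immunoproteasome differed widely in how much they changed. Psmb8 (chr17:34197721-34201454), the chymotrypsin-like subunit β5i, had 201, 198 and 203 counts in the controls and 4, 2 and 4 counts in the labelled knockout. The controls were alike and all far above the labelled knockout, where the gene was close to the limit of detection. The summed counts of 602 against 10 gave a ratio of 57.2 per effective library size (95% exact interval 30.9 to 120, which covers counting error only), and the fitted log2 fold change was -5.79 ± 0.21 (SE). By length-scaled level (FPKM, the cpm value divided by the exon length in kb) Psmb8 went from the 41.9th to the 2.93rd percentile of the genes tested.

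Psmb9 (chr17:34181987-34187764), the β1i subunit that changes the caspase-like site, had 64, 80 and 74 counts against 21, 31 and 34. It was the lowest of the 9 lower genes in controls, at 2.63 ± 0.324 cpm (SD, n = 3) against 1.09 ± 0.248 cpm, a log2 fold change of -1.27 ± 0.18. Psmb10 (chr8:105935735-105938444), the trypsin-like subunit β2i, had 2053, 2135 and 2062 counts against 1297, 1237 and 1390, a log2 fold change of -0.60 ± 0.03. Psmb10 was the most abundant of the 10 genes in both groups and had the smallest log2 change among them.

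Each immunosubunit takes the place of a constitutive subunit, so its transcript was also given as a share of the pair, in FPKM. For β5, Psmb8 made up 1.51%, 1.44% and 1.62% of Psmb8 plus Psmb5 in controls and 0.039%, 0.0208% and 0.0334% in the labelled knockout. For β1, Psmb9 made up 0.323%, 0.41% and 0.377% of Psmb9 plus Psmb6, against 0.115%, 0.182% and 0.166%. For β2, Psmb10 made up 37.61%, 39.96% and 38.5% of Psmb10 plus Psmb7, against 28.98%, 29.29% and 28.94%. At the β5 and β1 positions the transcripts were nearly all constitutive in both groups, whereas at β2 the immunosubunit was a large part of the pair in both. The level of these shares depends on the length used (for β5 in controls, 3.55% with mean transcript lengths and 5.5% from counts without length), and each stayed lower in the labelled knockout with every length.

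**Figure D2:**
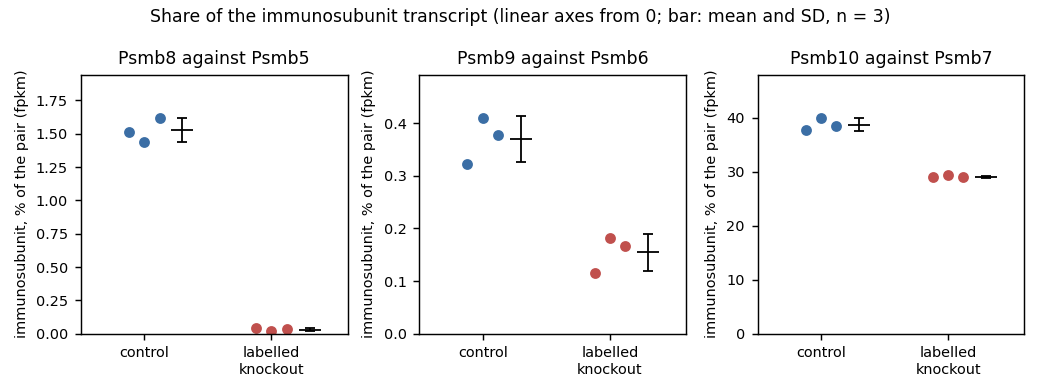
Share of the immunosubunit in the summed FPKM of immunosubunit and constitutive subunit at the 3 catalytic positions, in percent, with 1 point per library and the mean and SD (n = 3) beside them. The vertical scales differ: the means are 1.52% and 0.0311% for Psmb8, 0.37% and 0.154% for Psmb9, and 38.7% and 29.1% for Psmb10, in control and labelled knockout.

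The constitutive partners were not chosen for their change and can be tested. Psmb5 was lower, at 124.7 ± 5.88 cpm in controls and 107.0 ± 5.14 cpm in the labelled knockout (log2 fold change -0.22 ± 0.03, adjusted p = 6.58e-08, by the quasi-likelihood test of edgeR, adjusted by Benjamini-Hochberg). Psmb6 (361.6 and 360.0 cpm, adjusted p = 0.84 in edgeR) and Psmb7 (239.3 and 243.4 cpm, adjusted p = 0.385 in edgeR) did not pass the test.

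The peptide transporter is a pair of ATP-driven subunits, TAP1 and TAP2, and both transcripts were lower by like amounts. Tap1 (chr17:34187553-34197225) had 220, 181 and 165 counts in controls and 21, 25 and 29 counts in the labelled knockout, a log2 fold change of -2.84 ± 0.15. The Tap1 controls spread more than counting alone would give, with a coefficient of variation of 13.6% against 7.28%. Tap2 (chr17:34203527-34216321) had 119, 109 and 131 counts against 11, 14 and 18, a log2 fold change of -2.98 ± 0.18. The standard errors of the Tap1 and Tap2 changes overlap, and so do their FPKM in each group, at 1.24 ± 0.169 and 1.14 ± 0.109 in controls and 0.173 ± 0.0229 and 0.144 ± 0.0292 in the labelled knockout.

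Tapbp (chr17:33915899-33929292) encodes tapasin, which bridges the transporter and the empty heavy chain. It had 1363, 1199 and 1285 counts in controls and 482, 442 and 523 counts in the labelled knockout, a log2 fold change of -1.34 ± 0.05. The lowest control was far above the highest labelled knockout library.

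The light chain and the classical heavy chains changed least after Psmb10. B2m (chr2:122147686-122153083), which encodes β2-microglobulin, had 454, 460 and 470 counts against 233, 218 and 224, a log2 fold change of -0.96 ± 0.07. H2-K1 (chr17:33996017-34000347) had 815, 789 and 813 counts against 443, 373 and 446 (-0.86 ± 0.05), and H2-D1 (chr17:35262730-35267499) had 421, 443 and 399 against 265, 219 and 248 (-0.71 ± 0.07). These transcripts stayed well above the floor of 3 counts in every library labelled knockout. The heavy chains share stretches of sequence, and fragments with more than 1 location had been discarded. Of the 76-base windows of the longest reference transcript, 1.22% for H2-K1, 6.81% for H2-D1 and 4.58% for Gm8909 are also found letter for letter in another gene. Windows alike but for a few bases are not in these shares, so how uncertain the levels are was not measured. For Psmb8, Psmb9, Psmb10, Tap1, Tap2 and B2m the share was 0, and for Tapbp 0.956%.

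Gm8909 (chr17:36164443-36168537), annotated as protein-coding, lies among the H2-T genes of the MHC. Its longest reference transcript matched that of H2-D1 at 87.3% and that of H2-K1 at 79.2% of the bases of the shorter one. It had 0 counts in all 3 controls and 165, 140 and 162 counts in the labelled knockout. The 3 labelled knockout libraries were alike, at 5.91 ± 0.351 cpm, and with each control set to a floor of 3 counts (0.108 cpm on average) Gm8909 was at least 54.6-fold higher. Its level there, 3.83 FPKM, overlapped that of H2-D1 (3.60 FPKM) in the same libraries.

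On the length-scaled level, the order in controls was Psmb10 (44.1 FPKM), B2m (19.4), Tapbp (12.8), H2-K1 (9.90), H2-D1 (5.90), Psmb8 (2.14), Tap1 (1.24), Tap2 (1.14) and Psmb9 (0.718), with Gm8909 at 0. In the labelled knockout the FPKM order was Psmb10 (29.2), B2m (9.97), H2-K1 (5.44), Tapbp (5.05), Gm8909 (3.83), H2-D1 (3.60), Psmb9 (0.298), Tap1 (0.173), Tap2 (0.144) and Psmb8 (0.0371). The neighbours whose libraries overlapped were Tap1 and Tap2 in both groups, and Gm8909 and H2-D1 in the labelled knockout. Psmb8 thus went from above both TAP genes to the last place, and the loading and heavy chain genes kept moderate levels.

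The other genes of the pathway were listed by role and tested. Of the 14 subunits of the 20S core, 8 were higher, 1 was lower (Psmb5) and 5 did not pass the test, with a median log2 fold change of 0.07; with library totals in place of TMM scaling 6 were higher and 2 lower. Psmb3 (0.38) and Psma5 (0.25), structural subunits of the core, rose most. Of the 18 subunits of the 19S particle, which unfolds substrates, 13 were higher, 2 lower and 3 not past the test, with a median of 0.11. Psmd1 (0.70 ± 0.02) and Psmc1 (0.42 ± 0.03) rose most, and Psmd11 (-0.10) and Psmd14 (-0.08) fell, a call lost for Psmd14 without labelled knockout replicate 1 (adjusted p = 0.0532 in edgeR). The core and the 19S particle summed to at least 2870 and 4630 cpm in each library, and none of their genes changed by 1 or more on the log2 scale.

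Of the 9 activators and assembly factors, 3 were higher, 3 lower and 3 not past the test, or 3 higher and 5 lower with library totals. The lower genes included Psme1 and Psme2, the subunits of the interferon-inducible activator PA28. Psme1 had 2104, 2042 and 2050 counts in controls and 1157, 1139 and 1243 in the labelled knockout (log2 fold change -0.73 ± 0.04, adjusted p = 4.55e-24, edgeR). Psme2 had 2195, 2243 and 2280 against 1277, 1165 and 1409 (-0.73 ± 0.04, adjusted p = 6.15e-24, edgeR). Both genes fell by the same amount within their standard errors. The assembly chaperones Psmg1 and Psmg2 both rose by 0.25 on the log2 scale.

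Among 12 genes that trim or load peptides, 7 were higher, 4 lower and 1 not past the test, with a median of 0.09. Erap1, the aminopeptidase that trims peptides in the endoplasmic reticulum, had 448, 451 and 459 counts in controls and 81, 83 and 115 in the labelled knockout (-2.21 ± 0.09, adjusted p = 3.05e-27, edgeR). Of the chaperones that hold the heavy chain, Calr fell by 0.74, Pdia3 by 0.25 and Canx by 0.20 on the log2 scale. The cytosolic peptidase Tpp2 (0.64 ± 0.03) and the glycoprotein sensor Uggt1 (0.54 ± 0.03) rose most.

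Of 27 other class I heavy chain genes counted, 15 were tested, and 6 were higher, 6 lower and 3 not past the test, with a median of -0.07. H2-Q6 fell most among those with enough counts, with 117, 150 and 126 counts against 35, 32 and 39 (-1.81 ± 0.15). H2-T23, which presents leader peptides, fell by 0.58 ± 0.21 on the log2 scale, a call lost with DESeq2 (adjusted p = 0.0755) and without labelled knockout replicate 2 (adjusted p = 0.0579 in edgeR). H2-M3, which presents formylated peptides, rose with 56, 61 and 58 counts against 91, 105 and 96 (0.81 ± 0.14). Several heavy chain genes share sequence, so counts can be lost between copies. Of 10 class I-like genes tested, 2 were higher, 3 lower and 5 not past the test. Fcgrt, the neonatal Fc receptor heavy chain, which pairs with β2-microglobulin, had 293, 275 and 294 counts against 100, 103 and 125 (-1.32 ± 0.09, adjusted p = 5.99e-18, edgeR). Raet1e, a ligand of NKG2D, rose by 0.33 ± 0.13, a call lost with DESeq2 (adjusted p = 0.108) and without control replicate 1 (adjusted p = 0.0603 in edgeR) or 2 (adjusted p = 0.0654 in edgeR).

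**Figure D3:**
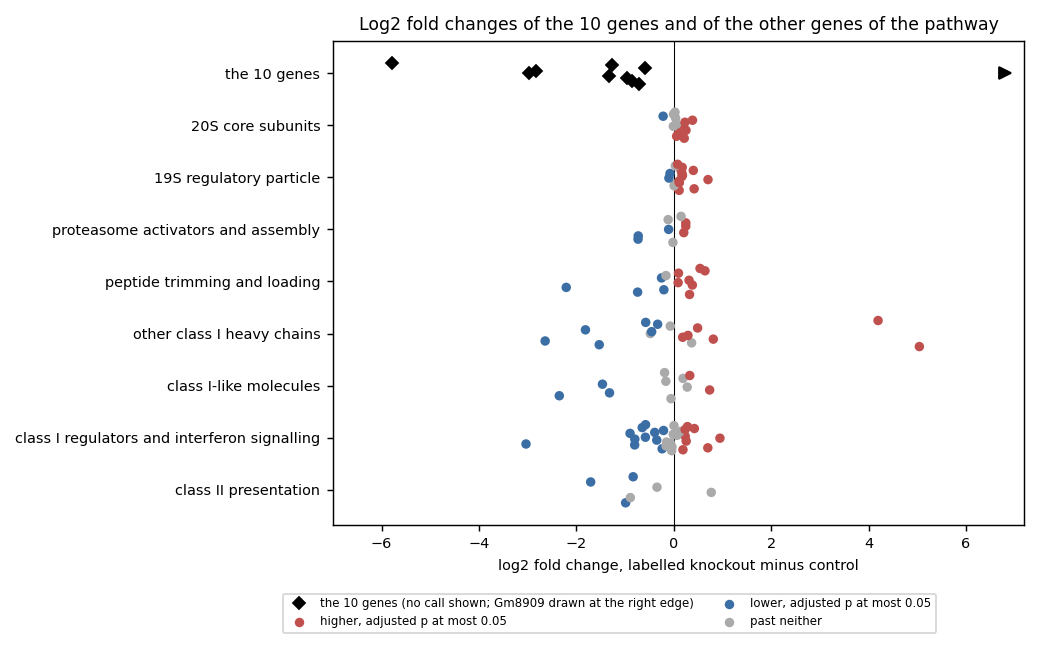
Log2 fold change (labelled knockout minus control) of each tested gene, 1 point per gene and 1 row per list, with the 10 genes as black diamonds on top and Gm8909, whose fitted value depends on a prior count, as an arrowhead at the right edge. The 20S and 19S lists lie close to 0 with medians of 0.07 and 0.11, while Erap1 (-2.21), Psme1 and Psme2 (-0.73 each) and Gm10499 (5.04) lie apart from their lists.

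The regulators of class I transcription moved in both directions, with 8 of 28 tested genes higher, 11 lower and 9 not past the test. Nlrc5, the class I transactivator, had 62, 56 and 49 counts in controls and 33, 23 and 29 in the labelled knockout (-0.90 ± 0.19, adjusted p = 4.18e-05, edgeR). Irf1, which binds ISRE letters, had 2542, 2410 and 2552 counts against 1357, 1210 and 1523 (-0.80 ± 0.04, adjusted p = 1.22e-25, edgeR). Both transcripts were lower in every labelled knockout library than in every control. Nfkb1, a subunit of the factor that binds kappa-B letters, rose from 900, 931 and 931 counts to 1663, 1580 and 1822 (0.95 ± 0.04), and the interferon receptor subunit Ifnar2 rose by 0.70 ± 0.11. Of 11 interferon ligand genes, 10 had 0 counts in all libraries, and Ifnl2 had 2, 1 and 4 counts in controls and 0 in the labelled knockout.

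Of 11 class II genes 6 were tested, and 0 were higher, 3 lower and 3 not past the test. H2-DMb1, which exchanges peptides on class II molecules, had 62, 49 and 65 counts against 23, 11 and 17 (-1.71 ± 0.22), and the invariant chain gene Cd74 had 112, 108 and 102 against 45, 55 and 54 (-0.99 ± 0.14). Class II genes are known from antigen-presenting cells. The summed leukocyte markers given above were also lower, but among them Itgam rose (0.81) and Cd3e did not pass the test. A link between the 2 lists was not tested.

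The list is one of MHC class I genes, so the places of most of them on the genome follow from the list and are no result. Of the 10, 8 lie on chromosome 17 within the MHC, and Psmb9, Tap1, Psmb8 and Tap2 stand next to each other. Genes that start within 200 kb of any of the 10 and are not among them numbered 100 tested, of which 25 were higher, 42 lower and 33 not past the test, with a median log2 fold change of -0.11. Around Psmb8, 9 other genes were tested, of which 1 was higher, 5 lower and 3 not past the test, with a median of -0.35 and a range from -1.71 (H2-DMb1) to 0.77. All 9 changed by less than Tap1, Tap2 or Psmb8, which were chosen for their change, but H2-DMb1 fell by more than Psmb9 (-1.265). Near H2-D1, Ltb, which encodes the cytokine lymphotoxin β, fell with 100, 129 and 111 counts against 30, 22 and 26 (-2.05 ± 0.16, adjusted p = 1.51e-15, edgeR).

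Gm8909 stood in a run of genes that were higher in the labelled knockout. From Gm10499 to H2-T3, a span of 48.5 kb (chr17:36141758-36190287), all 5 other tested genes were higher, and the 3 remaining genes of the table there had at most 2 counts in any library. The ends of the span were set at Gm10499 and H2-T3 with the values known, so that all its tested genes were higher is not a result. Gm10499, a transcribed class I pseudogene about 22.6 kb from the start of Gm8909, had 13, 10 and 16 counts in controls and 411, 384 and 439 in the labelled knockout (5.04 ± 0.13, adjusted p = 1.24e-34, edgeR). Gm20478, an antisense gene that overlaps the start of Gm8909 on the other strand, had 2, 2 and 3 counts against 39, 33 and 46, a ratio of summed counts of 17.7 (95% exact interval 8.34 to 45.1, counting error only). The other 3 genes were named after their values were seen. H2-T3, the thymus leukemia antigen gene, had 2, 2 and 0 counts against 26, 20 and 30, a ratio of 19.99 (7.49 to 75.2). The noncoding gene 2410017I17Rik had 0 counts in all controls and 30, 36 and 40 in the labelled knockout, at least 12.4-fold higher at the floor. The pseudogene Gm17782 also had 0 counts in all controls and 11, 9 and 8 in the labelled knockout, at least 3.29-fold higher. All but Gm10499 of these 5 passed the filter on low counts only through the labelled knockout, so their passing the test is no separate support. Gm10499 was read in every control, while the other 4 genes had at most 3 counts in any control.

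The genes at the sides of this run behaved otherwise. On one side H2-T10 (36, 43 and 36 counts against 41, 27 and 36) and H2-Bl (51, 37 and 41 against 51, 57 and 50) did not pass the test (adjusted p = 0.76 and 0.0582, edgeR). On the other side Rpp21, 89.5 kb from the start of Gm8909, rose by 0.24 ± 0.07 and Trim39 did not pass the test (0.02 ± 0.04, adjusted p = 0.637, edgeR). No 76-base window of the longest Gm8909 reference transcript was found letter for letter in Gm10499, H2-T3, Gm17782 or H2-Bl (0% each). Windows alike but for a few bases were not counted, so whether fragments were shared with these neighbours was not tested. Fragments were mapped to the reference genome, and whether the lines differ from it in this run of genes was not tested. The libraries kept the strand of each fragment, which separates Gm8909 from Gm20478.

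**Figure D4:**
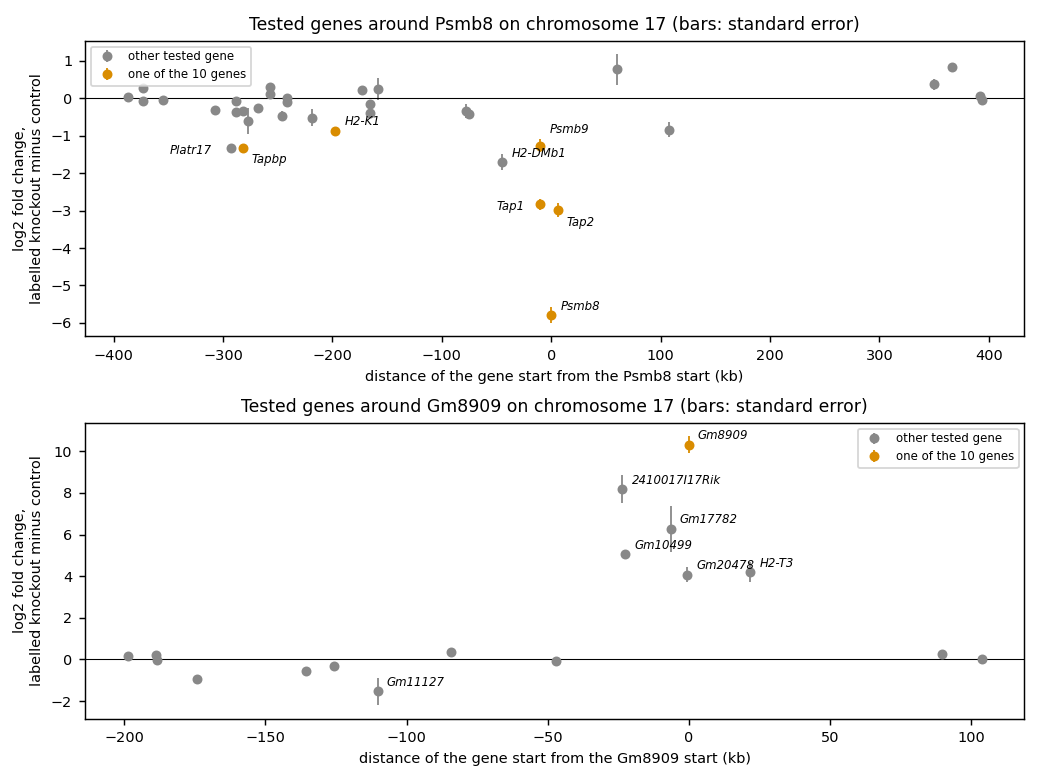
Log2 fold change with its standard error for the tested genes around Psmb8 (top) and Gm8909 (bottom) against the distance in kb of each gene's start, with the 10 genes in orange and other genes in grey. At the top Psmb8, Tap1 and Tap2, chosen for their change, lie below their neighbours, while Psmb9 lies above H2-DMb1. At the bottom a run of 6 genes, its ends set with the values known, lies above 4. The genes on its sides lie between -1.53 and 0.37. The fitted values of Gm8909, 2410017I17Rik and Gm17782, with 0 counts in controls, depend on a prior count.

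Profiles across the 6 libraries were compared with the mean profile of the 10 by the root mean square difference of centred log2(cpm + 1). Genes of the pathway and marker lists were left out. The closest were Ppp1r1a (0.0129), Mta3 (0.0131), Otx2 (0.0165), Laptm4b (0.0179) and Ifitm3 (0.0207). The mean profile includes Gm8909, which moved the other way from the 9 lower genes. The mean profile stood between 0.441 and 0.45 in the 3 controls and between -0.45 and -0.442 in the labelled knockout. Ifitm3, an interferon-inducible antiviral membrane protein gene, had 4352, 4232 and 4266 counts against 2108, 2047 and 2268, and the epiblast factor gene Otx2 had 1482, 1409 and 1458 against 730, 679 and 786. All 5 fell by 0.91 to 0.94 on the log2 scale, which the choice by profile fixes, and likeness over 6 libraries in 2 groups reflects mainly the difference between the groups.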

How the data were processed

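The authors removed rRNA reads with Bowtie2 2.1.0, mapped the others to mm10 with TopHat 2.0.10 and counted fragments per GENCODE gene with htseq-count 0.6.1, using the strand and dropping fragments with several genes or locations. The deposited values are raw counts per gene, 1 column per library. The submitters' processing notes also name CASAVA 1.8.2. Counting could not be repeated.

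From these counts, genes that reached 10 counts in 1 or more libraries (16823 of 43309) were tested with edgeR 4.0.16 (TMM, quasi-likelihood test, Benjamini-Hochberg adjusted p at most 0.05, no covariate) in R 4.3.3, over all 6 libraries. The standard error is the log2 fold change over the square root of F. The fit was tested on simulated data. Symbols (found for 42425 genes), coordinates and exon lengths came from a later GENCODE annotation of the same build, GRCm38, and FPKM used the union of exons. Promoter windows are RefSeq's (GRCm38.p6). Depth was 25042261 to 28838924 counts. A count of 0 was set to a floor of 3 counts for bounds; there were no molecular identifiers, so intervals cover counting error only. DESeq2 1.42.0, other scalings, filters and tests, a replicate block and leaving out each library were the alternatives.

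The 10 genes, the gene lists and the tests were chosen with earlier results of these data known. The genes named are the 10, Zbtb24, Psmb5, Psmb6, Psmb7, Nlrc5, Irf1, Calr, Canx, Pdia3, Erap1, Psme1 and Psme2. Up to 2 per direction in each list and near the 10 were added (largest change past the test, mean of at least 20 counts, groups not overlapping). The 5 closest profiles outside all lists, with a mean of at least 100 counts, were also named. A gene named otherwise is said to be so, bounds a range or is a cell type marker. A gene of the rule is not reported here.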

Additional observations from a re-analysis of the deposited data

How the results depend on the processing

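The alternatives run were DESeq2, the exact test and the likelihood ratio test of edgeR, RLE scaling, library totals alone, other count filters, the replicate block and leaving out each library. The 10 genes were chosen by this comparison, so their values under the alternatives are a description and no sign of stability. Over the alternatives, the log2 fold change of Psmb8 ranged from -5.94 to -5.58, that of Tap1 from -2.92 to -2.73, that of Psmb9 from -1.37 to -1.09 and that of H2-D1 from -0.782 to -0.671. The count of all genes called ranged from 10326 with DESeq2 to 12073 with no filter on low counts. Of 10 class I-like genes, 5 passed in the main test, 2 with DESeq2 and between 3 and 5 when a library was left out; the cause was not tested. With no filter on low counts 1 interferon ligand gene passed instead of 0, since more genes were then tested. Psmb6, at -0.01 in the main test, changed sign without labelled knockout replicate 1 (0.00231) and replicate 2 (0.007), with a range from -0.0243 to 0.007 when a library was left out, and Psmb7 with library totals alone (-0.0238), none of them past the threshold. Psmb6 passed the threshold with library totals alone (-0.0543).

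The labels number the replicates 1 to 3 in both groups, but the correlations of same-numbered deviations were 0.0136, 0.0744 and 0.0151, so the numbers were not taken as pairs. With the replicate block 11801 genes were called instead of 11697.

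Depth limits Psmb8, which had at most 4 counts in each labelled knockout library, and the genes at 0, whose folds are lower bounds. Each group is 3 lines of 1 genotype label with 1 library per line, so line and library differences within a group are not separated.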
